A study of Mus musculus with 6 samples.

Results

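RNA of 36 genes that make, sense, import or export cholesterol, or make fatty acids, was compared between CD8+ T cells treated with GSK2879552 (GSK), an inhibitor of the histone demethylase LSD1, and cells treated with vehicle (Veh). The genes were a named list matched to the gene symbols of the deposited count table, which held all 36 among its 16281 genes. The list was divided by role into 7 enzymes of the mevalonate pathway, 11 enzymes from squalene to cholesterol, 6 enzymes of fatty acid synthesis, 5 genes of the SREBP machinery, 2 genes of uptake and sterol carriage, and 5 genes of LXR and efflux. All 36 passed edgeR's filter on low counts and were tested among 11698 genes. The comparison asks whether the transcripts of lipid synthesis differed when LSD1 was inhibited during activation and expansion.

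The cells came from OT1 mice, which carry the transgenic T-cell receptor Tg(TcraTcrb)1100Mjb on the C57BL/6 background which recognises an ovalbumin peptide. The sample labels name the spleen as the source and give no age. All cultures, Veh included, received anti-CD3 and anti-CD28 at 2 μg/ml and IL-2 at 20 ng/mL for 48 h, and were then expanded with IL-2 for 3 days, so RNA was taken on day 5. GSK was present at 0.5 μM through activation and expansion in 3 samples, and vehicle, whose composition the labels do not give, in the other 3. The authors name 3 separate mice as the source of the cells and not whether same-numbered samples shared a mouse. The main test took the samples as unpaired, so a mouse shared between the groups is not modelled in it. The counts of a sample summed to between 18288447 and 18918811 in Veh and to between 19149909 and 19846720 in GSK. Replicates of a group differed by more than sampling noise: chi-square divided by its degrees of freedom was 4.07 to 4.82 for 5 of the pairs and 9.39 for GSK replicates 2 and 3. Levels are given as normalised read counts (CPM, scaled by the TMM-adjusted total of each sample), and errors as SD with n = 3 samples a group.

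Animal cells build cholesterol from acetyl-CoA through mevalonate, isopentenyl units, squalene and lanosterol, and build fatty acids from the same acetyl-CoA through malonyl-CoA. When membrane sterol is low, SCAP carries the SREBP proteins from the endoplasmic reticulum to the Golgi, where they are cut and released to switch on the genes of both pathways, and INSIG proteins hold them back when sterol is plentiful. Oxysterols made from surplus cholesterol act through the LXR receptors on genes of export. T cells raise both synthesis pathways when they are activated and have to build membrane for division.

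The stretches upstream of 4 members are shown for the letters that SREBPs and their partner factors are known to use: Hmgcs1, the gene with a match to the sterol response element, Hsd17b7 and Fasn, the enzymes with the largest increases, and Vldlr, the gene with the largest decrease. The sequences are from RefSeq promoters in GRCm38.p6, read 5′ to 3′ on the gene's strand up to 160 bases before an annotated RefSeq start, and capitals mark TCACNCCAC (the sterol response element), CCAAT (bound by NF-Y) and CACGTG (the palindromic E-box) on either strand, so that ATTGG is CCAAT on the other strand.
Hmgcs1: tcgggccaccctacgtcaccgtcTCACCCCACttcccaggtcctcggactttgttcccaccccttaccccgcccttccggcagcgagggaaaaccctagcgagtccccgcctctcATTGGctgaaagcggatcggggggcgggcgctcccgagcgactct
Hsd17b7: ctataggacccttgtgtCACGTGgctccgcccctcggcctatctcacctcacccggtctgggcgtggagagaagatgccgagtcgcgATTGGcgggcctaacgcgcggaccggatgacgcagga
Fasn: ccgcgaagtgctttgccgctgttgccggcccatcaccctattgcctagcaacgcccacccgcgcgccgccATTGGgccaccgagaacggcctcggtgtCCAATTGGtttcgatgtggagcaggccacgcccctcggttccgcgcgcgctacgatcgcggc
Vldlr: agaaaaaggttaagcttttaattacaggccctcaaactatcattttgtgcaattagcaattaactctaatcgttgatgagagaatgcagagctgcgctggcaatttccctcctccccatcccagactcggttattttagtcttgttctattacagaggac
The Hmgcs1 stretch (chr13:119690191-119690350, + strand) holds the sterol response element 137 bases before the start and a CCAAT box on the other strand 45 bases before it. The Hsd17b7 stretch (chr1:169969242-169969365, - strand) holds the E-box 143 bases and a CCAAT box 73 bases before the start, and its last 36 bases before the RefSeq start are left out because a GENCODE exon covers them. The Fasn stretch (chr11:120824548-120824707, - strand) lies in an intron of a longer GENCODE transcript and holds 3 CCAAT matches, of which CCAATTGG counts on both strands. The Vldlr stretch (chr19:27216324-27216483, + strand) holds none of the motifs before this start, and Vldlr has a second RefSeq start downstream with a CCAAT box 78 bases before it.

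RefSeq promoters, covering 250 bases before and 50 after each start, were matched for 29 of the 36 members. CCAAT was present in 22 of these 29 (75.9%), against 41.1% of the promoters of 27025 genes and 43.4% of those of tested genes. Among the enzymes that rose with GSK, it was present in 10 of the 13 with a matched promoter. CACGTG was present in 6 of 29 (20.7%) against 8.09% of all and 11.7% of tested genes, and the GC box GGGCGG in 23 of 29 against 38.2% of all and 68.4% of tested genes. TCACNCCAC was present in 1 of 29 against 1.44% of all and 1.35% of tested genes. A match of letters is a description of the window and not a measured site.

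With GSK, most enzymes of both synthesis pathways rose by a small amount, while 3 of the 5 genes of LXR and efflux (Nr1h2, Abcg1 and Mylip), the VLDL receptor and 2 of the 5 SREBP control genes fell. Of the 36 members, 16 were higher, 7 were lower and 13 did not pass an adjusted p of 0.05 (edgeR's quasi-likelihood test, Benjamini-Hochberg adjustment over all tested genes). Over all genes tested, 16.6% were called higher and 15.5% lower by the same rule. The 24 synthesis enzymes held 15 of the 16 higher members and 1 of the lower, and the 12 other members held 1 higher and 6 lower.

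Few of these changes were large. Past the 1.5-fold threshold as well as the adjusted p, 1 member was higher (Hsd17b7) and 2 were lower (Vldlr and Abcg1), against a background of 2.22% of all genes higher and 4.09% lower. The samples of the groups did not overlap in 26 members, and they did not overlap in 46.7% of all genes tested. The median log2 fold change was 0.11 over the 36 members and -0.0039 over all genes, with a 10th percentile of -0.42 and a 90th of 0.33. The count of higher members depended on single samples: it was 7 without Veh replicate 1, 7 without GSK replicate 1 and 10 without GSK replicate 3. Over all genes tested, 1941 were higher with all samples, and 1377, 1288 and 1463 in the same fits. Hsd17b7 was under 1.5-fold without GSK replicate 3, and Abcg1 was under it without Veh replicate 1. Because the samples are bulk RNA, fewer cells of a kind and less RNA per cell cannot be told apart.

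**Figure D1:**
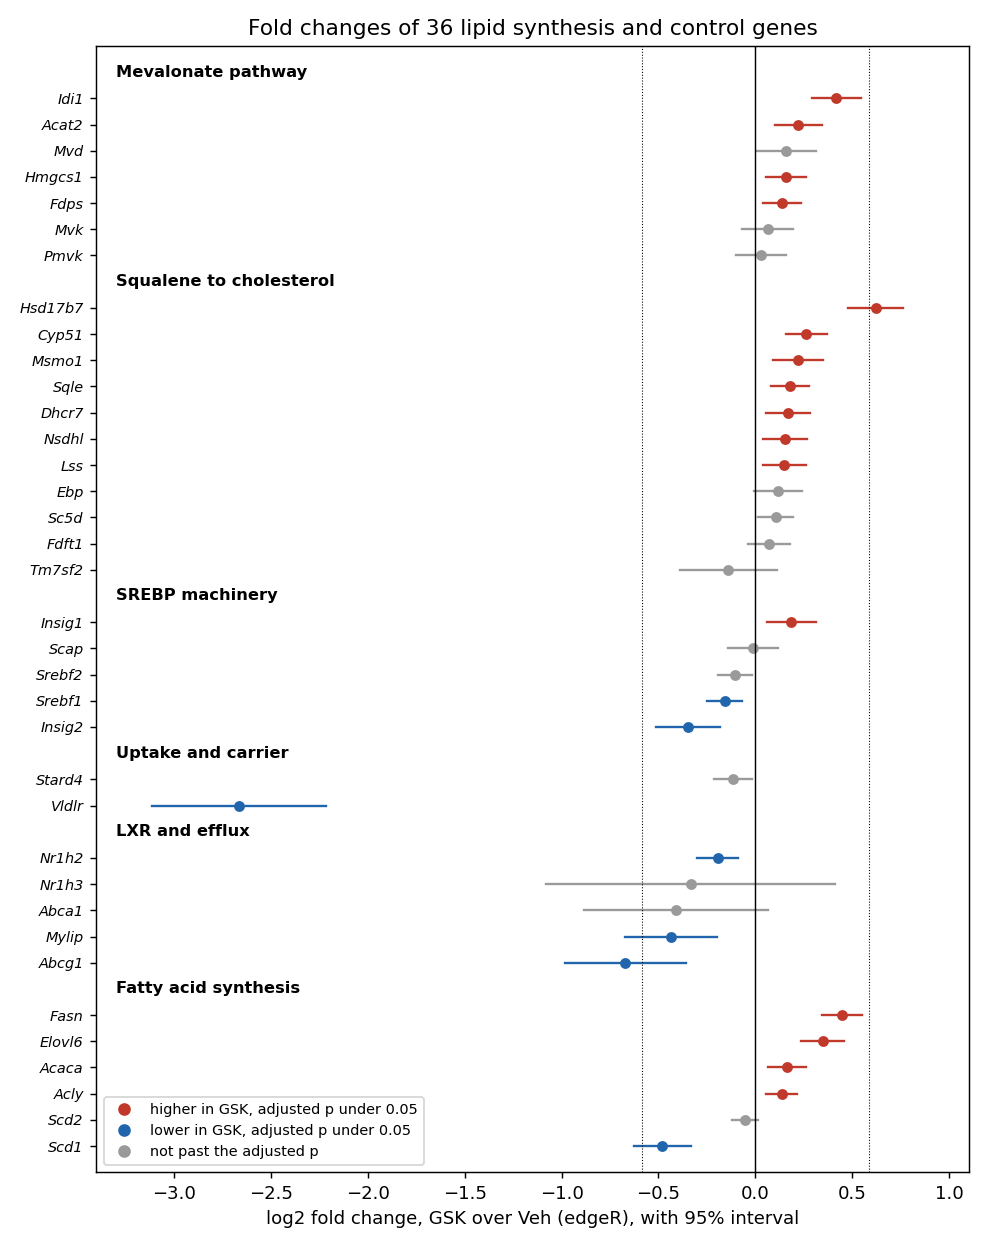
Log2 fold change (GSK over Veh) of the 36 members by role, with the 95% interval from edgeR, against 0 (solid line) and 1.5-fold either way (dotted lines), n = 3 samples a group. Of the enzymes, only Hsd17b7 lies past the upper dotted line, the 5 LXR and efflux genes all lie left of 0, and Vldlr stands alone at -2.66.

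The mevalonate pathway makes the isoprenoid units from acetyl-CoA. Of its 7 enzymes here, 4 rose (Acat2, Hmgcs1, Idi1 and Fdps), and by edgeR no enzyme fell, either by the adjusted p or at an unadjusted p of 0.05, and none by DESeq2. The median log2 fold change of the 7 was 0.16, a factor of 1.12. Acat2, the cytosolic thiolase that joins 2 acetyl-CoA at the entry of the pathway, had 79.1, 80.8 and 84.7 CPM in the Veh samples and 88.2, 96.9 and 100.3 CPM in the GSK samples. The groups did not overlap, and Acat2 rose by 0.22 on the log2 scale (SE 0.056, adjusted p = 0.0096). Of the 31-base words of its transcripts, 43.7% also occur in transcripts of its neighbour gene Acat3, which had at most 10 counts in a sample.

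Hmgcs1, the synthase that makes HMG-CoA, had 493, 543 and 566 CPM in Veh and 607, 578 and 602 CPM in GSK. All GSK samples were above all Veh samples, by a log2 fold change of 0.16 (SE 0.048, adjusted p = 0.024), and the call was lost without Veh replicate 1, GSK replicate 1 or GSK replicate 3. Idi1, the isomerase that interconverts the isopentenyl units, had the largest increase of the 7, from 69.0, 74.8 and 72.7 CPM in Veh to 99.5, 88.9 and 101 CPM in GSK. Its log2 fold change of 0.42 (SE 0.058, adjusted p = 0.00023) kept its call in all 12 alternatives (DESeq2, 2 other scalings, 2 other filters, the replicate number as a block, and each of the 6 samples left out in turn), although 18.8% of its 31-base words are shared, most of them with the processed pseudogene Gm13502. Fdps, which joins the units to farnesyl pyrophosphate at the end of this branch, had 254, 277 and 268 CPM in Veh and 298, 281 and 300.1 CPM in GSK. The nearest samples of the groups were 277 and 281 CPM, and the increase of 0.14 (SE 0.046, adjusted p = 0.036) was lost in 6 of 12 alternatives, 4 of them leaving out a sample. Fdps overlaps Gm43738 on the same strand, and 27.9% of its 31-base words are shared, most of them with that gene.

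The 2 kinases and the decarboxylase between them did not pass the test. Mvk, which phosphorylates mevalonate, had a log2 fold change of 0.063 with a 95% interval from -0.069 to 0.20. Pmvk, the next kinase, had 0.030 (interval -0.10 to 0.16). Mvd, the decarboxylase that makes isopentenyl pyrophosphate, had 0.16 (interval 0.0064 to 0.31), as large an estimate as that of Hmgcs1 with a wider error, and its adjusted p was 0.10. The upper ends of the intervals of Mvk and Pmvk lie below the estimates of Acat2 and Idi1, and that of Mvd below the estimate of Idi1.

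From squalene to cholesterol, 7 of 11 enzymes rose (Sqle, Lss, Cyp51, Msmo1, Nsdhl, Hsd17b7 and Dhcr7), none fell by edgeR, at an unadjusted p of 0.05 either, or by DESeq2, and the median log2 fold change was 0.15. The largest increase was that of Hsd17b7, the ketosteroid reductase that completes the removal of the methyl groups at carbon 4 of the sterol ring. It had 38.2, 37.9 and 38.0 CPM in Veh and 59.3, 53.6 and 62.6 CPM in GSK, that is 38.0 ± 0.134 against 58.5 ± 4.52 (SD). The Veh samples were nearly equal, every GSK sample was above them, and the log2 fold change was 0.62 (SE 0.066, adjusted p = 3.14e-05), a factor of 1.54. Its call by the adjusted p held in all 12 alternatives, between 0.57 and 0.68.

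Msmo1 and Nsdhl, the oxidase and the decarboxylating dehydrogenase that act on the same carbon before Hsd17b7, rose less. Msmo1 had 95.1, 106 and 107 CPM in Veh and 126, 112 and 122 CPM in GSK (log2 fold change 0.22, SE 0.059, adjusted p = 0.013). Nsdhl had 62.1, 64.3 and 66.6 CPM in Veh and 71.5, 69.3 and 73.8 CPM in GSK (0.15, SE 0.053, adjusted p = 0.041), and was lost in 8 of 12 alternatives, the most of any member, DESeq2 among them. The Msmo1 call was lost without Veh replicate 1 or GSK replicate 1.

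Cyp51, the lanosterol demethylase, had 311, 339 and 325 CPM in Veh and 397, 365 and 409 CPM in GSK. The groups did not overlap, and the log2 fold change was 0.26 (SE 0.049, adjusted p = 0.0015), with a call in all 12 alternatives. Sqle, the epoxidase that introduces the first oxygen into squalene and is a controlled step of the pathway, had 169, 177 and 176 CPM in Veh and 197, 189 and 205 CPM in GSK. Its increase of 0.18 (SE 0.045, adjusted p = 0.0094) also held in all 12 alternatives. Lss, which folds the epoxide into lanosterol, had 143, 145 and 139.8 CPM in Veh and 161, 147 and 167 CPM in GSK. GSK replicate 2 lay just above the highest Veh sample, and the increase of 0.15 (SE 0.051, adjusted p = 0.040) was lost in 7 of 12 alternatives. Cyp51 overlaps Akap9 on the opposite strand, and whether the counting used the strand is not given in the sources used here.

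At the 2 ends of this branch, Fdft1, the squalene synthase, had 114, 121 and 124 CPM in Veh and 132, 121 and 123 CPM in GSK, and Dhcr7, which reduces 7-dehydrocholesterol to cholesterol, had 76.5, 83.0 and 84.4 CPM in Veh and 91.6, 89.5 and 93.2 CPM in GSK. The groups overlapped for Fdft1, whose log2 fold change of 0.069 had an interval from -0.040 to 0.18. They did not overlap for Dhcr7, which rose by 0.17 (SE 0.052, adjusted p = 0.024), a call lost without Veh replicate 1, GSK replicate 1 or GSK replicate 3. Ebp, the sterol isomerase, had a log2 fold change of 0.12 (interval -0.0084 to 0.24). Sc5d, the lathosterol desaturase, had 124, 127 and 126 CPM in Veh and 135, 134 and 135 CPM in GSK, so that its groups did not overlap although its adjusted p was 0.071. Tm7sf2, a sterol reductase that works beside the lamin B receptor, was the sole enzyme of the 18 with a negative estimate, -0.14 (interval -0.39 to 0.11), at 14.1 CPM in Veh, and it shares same-strand sequence with Vps51.

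The summed CPM of the 18 enzymes from acetyl-CoA to cholesterol was 2283, 2454 and 2450.1 in the Veh samples and 2751, 2600.0 and 2788 in the GSK samples. Every GSK sum was above every Veh sum, with a ratio of means of 1.13. Hsd17b7 had 0.334, 0.313 and 0.307 counts per Fdft1 count in Veh and 0.449, 0.443 and 0.507 in GSK. This ratio sets the largest increase of the branch against its smallest positive estimate, so it restates the fold changes above.

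**Figure D2:**
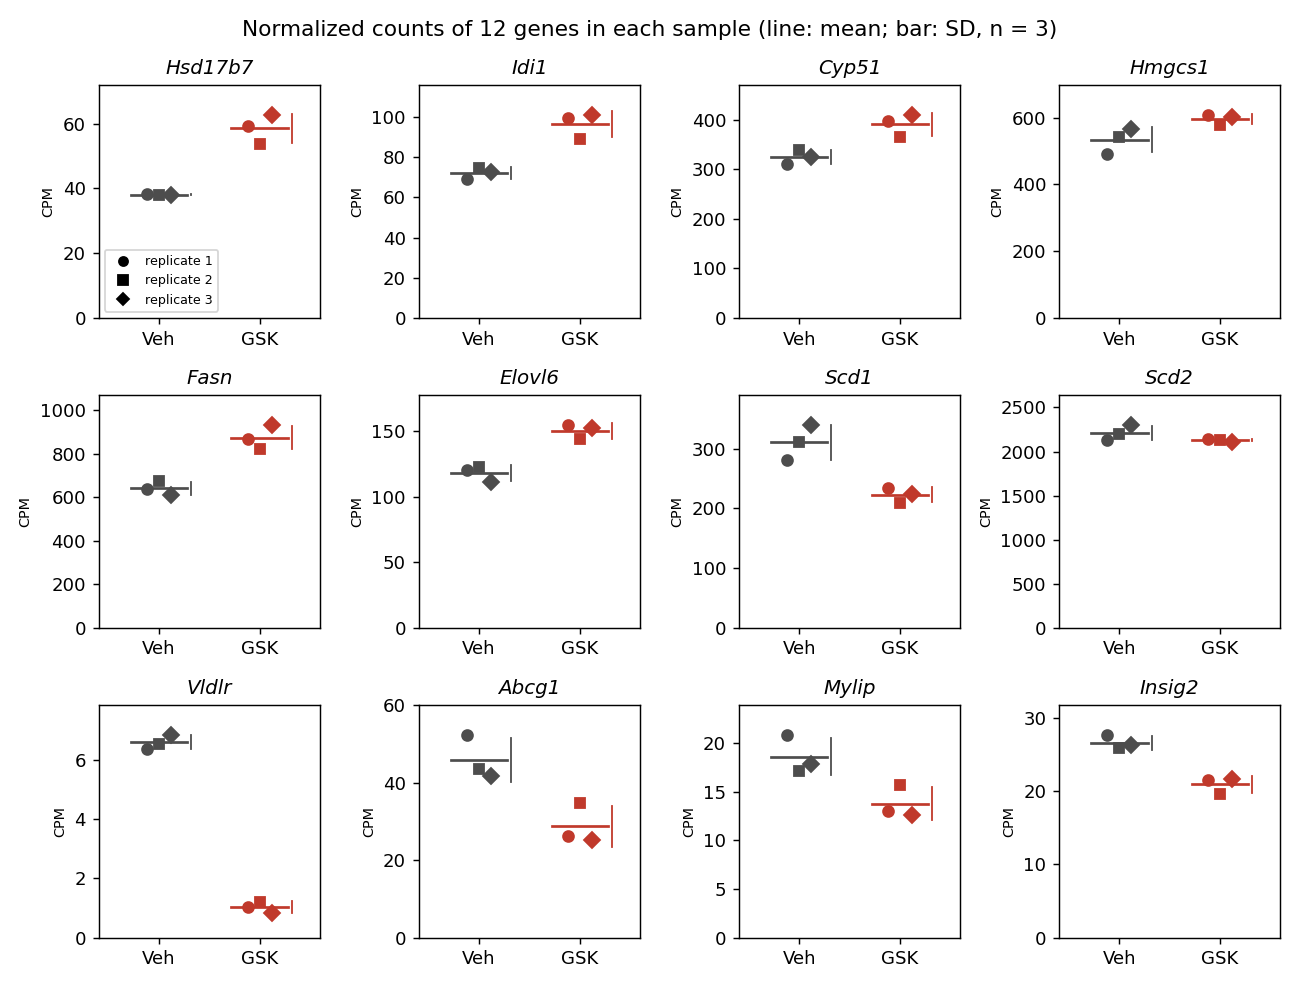
CPM of 12 members in each of the 6 samples (y axes start at 0), with the group mean as a line and the SD as a bar, n = 3 samples a group. Hsd17b7, Idi1, Cyp51, Fasn and Elovl6 are higher in every GSK sample, Scd1, Vldlr, Abcg1, Mylip and Insig2 lower, and the groups of Scd2 overlap.

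Of the 6 enzymes of fatty acid synthesis, 4 rose and 1 fell. Acly, which splits citrate into the cytosolic acetyl-CoA that both pathways use, had 508, 544 and 521 CPM in Veh and 582, 564 and 583 CPM in GSK (log2 fold change 0.14, SE 0.038, adjusted p = 0.015). Acaca, the acetyl-CoA carboxylase that makes malonyl-CoA, had 150.1, 156 and 148 CPM in Veh and 171, 163 and 176 CPM in GSK (0.16, SE 0.046, adjusted p = 0.016). Both were higher in every GSK sample, and both calls were lost without Veh replicate 1, Veh replicate 3 or GSK replicate 1, and that of Acaca also without GSK replicate 3.

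The 2 steps that build the chain rose more. Fasn, the multifunctional synthase that makes palmitate, had 637, 673 and 612 CPM in Veh and 869, 821 and 930.5 CPM in GSK, that is 641 ± 30.6 against 874 ± 54.8 (SD). The lowest GSK sample was above the highest Veh sample by more than the range of the Veh samples, and the log2 fold change was 0.45 (SE 0.049, adjusted p = 5.6e-05), a factor of 1.36. Elovl6, which extends palmitate to stearate, had 120.5, 123 and 111 CPM in Veh and 155, 144 and 152 CPM in GSK, a log2 fold change of 0.35 (SE 0.051, adjusted p = 0.00031). Fasn and Elovl6 kept their calls in all 12 alternatives.

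Scd1, the desaturase that turns stearate into oleate and so takes up the product of Elovl6, moved the other way. It had 281, 311 and 339 CPM in Veh and 235, 209 and 224 CPM in GSK. Every GSK sample was below every Veh sample, and Scd1 fell by 0.48 on the log2 scale (SE 0.067, adjusted p = 0.00047), to a level 1.39-fold lower, in all 12 alternatives. Scd2, the paralog with the same reaction, had 2132, 2199 and 2299 CPM in Veh and 2140.3, 2131 and 2113 CPM in GSK. Its groups overlapped, and its log2 fold change of -0.054 had an interval from -0.12 to 0.014. Scd1 and Scd2 share 8.14% and 6.81% of their 31-base words with other genes, the largest part of them with Scd3, which had at most 12 counts in a sample.

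The opposite moves changed the proportions of Fasn and Elovl6 to Scd1. Fasn had 2.27, 2.16 and 1.80 counts per Scd1 count in the Veh samples and 3.71, 3.93 and 4.15 in the GSK samples. Elovl6 had 0.429, 0.394 and 0.328 per Scd1 count in Veh and 0.66, 0.688 and 0.679 in GSK. Both ratios were higher in every GSK sample, by factors of 1.89 and 1.76, and do not depend on the scaling of the libraries. Without the 2 desaturases the summed CPM of the other 4 enzymes was 1393 to 1497 in Veh and 1692 to 1842 in GSK, a ratio of means of 1.23. The sum of all 6 enzymes, to which Scd2 gave the most, was 3828 to 4031 in Veh. In GSK it was 4032 to 4180, a ratio of means of 1.04.

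The SREBP machinery did not move as a block: 1 of its 5 genes rose, 2 fell and 2 did not pass. Srebf2, which encodes the SREBP that mainly drives cholesterol synthesis, had 477, 482 and 519 CPM in Veh and 453, 457 and 465 CPM in GSK. The groups did not overlap, but the log2 fold change of -0.10 (interval -0.19 to -0.016) had an adjusted p of 0.068. Srebf1, which encodes the SREBPs of fatty acid synthesis, had 220.3, 224 and 229.8 CPM in Veh and 198, 206 and 200.01 CPM in GSK, and fell by 0.16 (SE 0.041, adjusted p = 0.010), a call lost without Veh replicate 3 or GSK replicate 1. Srebf1 overlaps Mir6921 and Mir6922 on its strand and Rai1 on the other, and Srebf2 contains Mir33. Neither regulator's own transcript was higher in GSK. The cut SREBP proteins were not measured, and a link to the 15 of 24 enzymes that were higher was not tested. Scap, the escort, had 105, 124 and 118 CPM in Veh and 117, 109 and 118 CPM in GSK, with overlapping groups and an interval from -0.14 to 0.12.

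The 2 INSIG genes, which encode the retention proteins, moved in opposite directions. Insig1, itself a target of the SREBPs, had 108, 125 and 127 CPM in Veh and 139, 137 and 133 CPM in GSK, and rose by 0.18 (SE 0.059, adjusted p = 0.029), a call lost without Veh replicate 1 or GSK replicate 1. Insig2 had 27.7, 25.9 and 26.4 CPM in Veh and 21.5, 19.6 and 21.7 CPM in GSK, and fell by 0.35 (SE 0.076, adjusted p = 0.0041) in all 12 alternatives. There were 3.91, 4.84 and 4.81 counts of Insig1 per count of Insig2 in the Veh samples and 6.47, 6.997 and 6.13 in the GSK samples, without overlap.

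Vldlr, the receptor that takes up triglyceride-rich lipoproteins, had the largest change of all 36 members. It had 6.36, 6.54 and 6.83 CPM in Veh and 1.05, 1.21 and 0.834 CPM in GSK, from 117, 122 and 130 counts in Veh and 20, 24 and 16 in GSK. The groups were far apart in every sample, and Vldlr fell by 2.66 on the log2 scale (SE 0.21, adjusted p = 3.4e-06), to a level 6.33-fold lower. It was the 1 member that passed a test of the fold change against 1.5 in either direction. By that edgeR test 0 members were higher, also at an unadjusted p of 0.05. Over all 11698 genes, 69 were higher and 65 lower by the adjusted p of that test. The level of Vldlr was low in both groups, at 0.654 CPM per kb of exon in Veh. Stard4, a sterol carrier of the cytosol, had 230, 238 and 234 CPM in Veh and 227, 207 and 215 CPM in GSK. Its groups did not overlap, and its log2 fold change of -0.12 (interval -0.21 to -0.020) had an adjusted p of 0.063.

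All 5 genes of LXR and efflux had negative estimates, with a median of -0.41, and 3 of them fell. By edgeR 0 were higher, also at an unadjusted p of 0.05, and 0 by DESeq2. Nr1h2, which encodes LXRβ, had 90.3, 85.4 and 87.0 CPM in Veh and 74.5, 79.2 and 75.8 CPM in GSK, and fell by 0.20 (SE 0.050, adjusted p = 0.0095), a call lost without GSK replicate 1. Nr1h3, which encodes LXRα, was at 1.69, 1.07 and 1.16 CPM in Veh and 1.102, 1.32 and 0.678 CPM in GSK. At this depth its interval ran from -1.08 to 0.41, so that no change was detectable.

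Of the transporters, Abcg1, which moves cholesterol to lipoprotein particles, had 52.3, 43.5 and 41.6 CPM in Veh and 26.2, 34.8 and 25.2 CPM in GSK. Its groups did not overlap and it fell by 0.67 (SE 0.14, adjusted p = 0.0073), to a level 1.59-fold lower. Abca1, which loads cholesterol on apolipoproteins, had 4.57, 4.61 and 3.52 CPM in Veh and 2.73, 4.15 and 2.66 CPM in GSK. GSK replicate 2 lay within the Veh range, and the log2 fold change of -0.41 (interval -0.89 to 0.066) did not pass, but did without GSK replicate 2, at -0.65 (adjusted p = 0.039). Mylip, an LXR target whose product is a ubiquitin ligase that sends lipoprotein receptors to degradation, had 20.8, 17.2 and 17.9 CPM in Veh and 13.0, 15.7 and 12.6 CPM in GSK, and fell by 0.44 (SE 0.11, adjusted p = 0.0094), a call lost without Veh replicate 1. Abcg1 overlaps the small RNA gene Gm25447 on its strand.

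**Figure D3:**
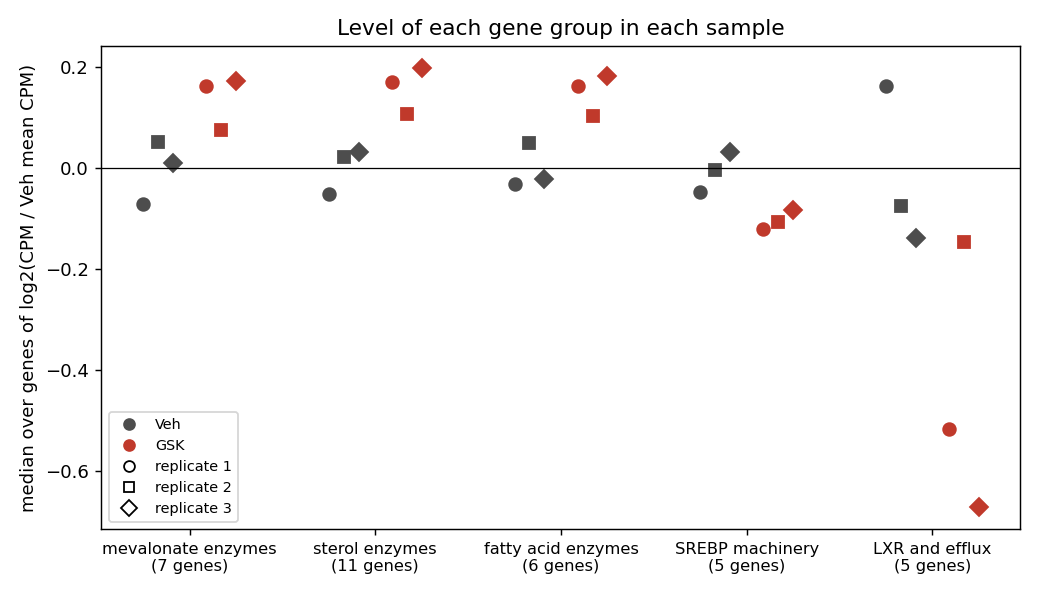
Median over the genes of a group of log2(CPM / mean Veh CPM) in each of the 6 samples, for the 5 groups with 5 or more genes. GSK replicate 2 (square) is the lowest GSK sample in the 3 enzyme groups, at 0.076, 0.11 and 0.10, and the highest in LXR and efflux, at -0.15.

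The GSK samples did not deviate equally. Replicate 2 was the lowest of the 3 GSK samples for 14 of the 15 enzymes that rose, and the highest for all 5 LXR and efflux genes and for 5 of the 7 members that fell. The median of the LXR and efflux group, as log2 of the CPM over the Veh mean, was -0.52 in GSK replicate 1, -0.15 in replicate 2 and -0.67 in replicate 3, and it ranged from -0.14 to 0.16 among the Veh samples. In this group GSK replicate 2 lay next to the lowest Veh sample and away from the other GSK samples. Without GSK replicate 2, 17 members were higher and 8 lower, and 1 was higher and 3 lower past 1.5-fold. Calls over all genes also rose in that fit, from 1941 to 2090 higher and from 1819 to 2013 lower. Whether the position of this sample is particular to the lipid genes was not tested.

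The levels per kb of exon (GENCODE vM21 exon lengths) set the members in an order that GSK changed little. Scd2 was first at 404 CPM per kb in Veh, followed by Hmgcs1 at 116, Acly at 99.4 and Cyp51 at 73.7, and these kept their places in GSK. Fasn went from place 8 (58.5) to place 5 (79.8 CPM per kb), and Scd1 from place 6 (63.5) to place 8 (45.5). In Veh, Scd1 and Fdps (63.3 CPM per kb) stood next to each other and differed by less than their SD over the samples, as did Pmvk (35.3) and Ebp (36.4). Below 1 CPM per kb were Vldlr, Nr1h3 (0.519) and Abca1 (0.409), so that in these cells Abcg1 (6.28) was the efflux transporter with the higher transcript level and Nr1h2 (26.1) the LXR with the higher one.

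**Figure D4:**
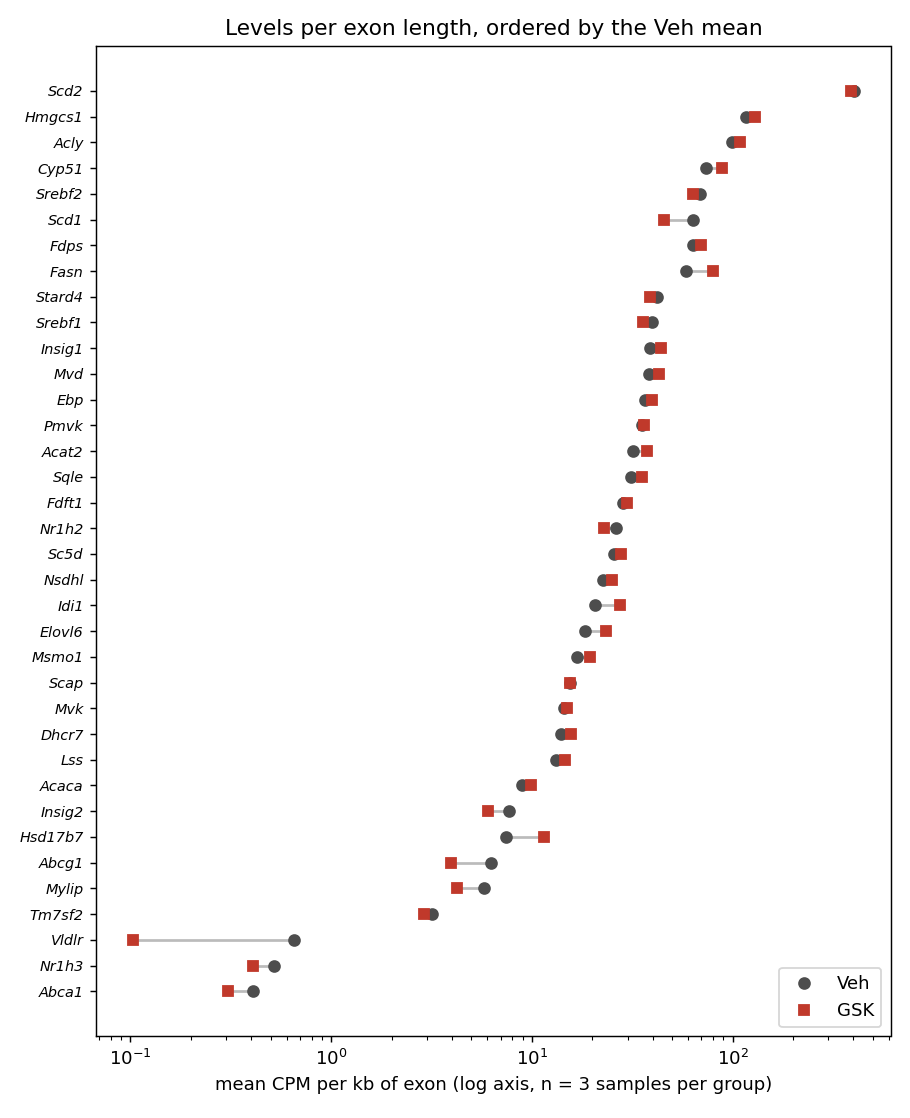
Mean CPM per kb of exon in Veh (circles) and GSK (squares) for the 36 members, on a log axis and ordered by Veh, n = 3 samples a group. Levels run from 404 for Scd2 to 0.409 for Abca1 in Veh, and the one long line is that of Vldlr.

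Another 58 genes of the same biology were listed as context, of which 57 were tested, and 12 were higher, 9 lower and 36 did not pass (median log2 fold change 0.023). That is 21.1% higher and 15.8% lower, near the 16.6% higher and 15.5% lower of all genes tested. Of 11 further genes of sterol and isoprenoid synthesis, including electron donors and acetyl-CoA supply, 5 rose and 1 fell. Of 10 further genes of SREBP processing and degradation, 1 fell and 9 did not pass. Of 12 tested genes of sterol traffic and esterification 1 rose and 5 fell, and of 24 of fatty acid elongation, desaturation, activation and storage 6 rose and 2 fell. Those that passed 1.5-fold all fell, and 2 of them are described. Acss2, which makes cytosolic acetyl-CoA from acetate, the other route beside Acly, had 38.0, 34.4 and 41.4 CPM in Veh and 18.7, 24.3 and 21.7 CPM in GSK (log2 fold change -0.81, SE 0.099, adjusted p = 0.00011). There were 13.4, 15.8 and 12.6 counts of Acly per count of Acss2 in Veh and 31.04, 23.2 and 26.9 in GSK. Dgat1, which makes the triglyceride of lipid droplets, fell from 63.1 ± 5.59 to 40.9 ± 5.11 CPM (SD; -0.63, adjusted p = 0.00069).

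The markers of the labelled cell type were present, with means of 516 CPM in Veh and 541 in GSK for Cd8a, and 406 and 375 for Cd8b1. The 9 genes listed for CD8+ T cells summed to 5795 to 6090.2 CPM in Veh and 5891 to 6250 in GSK. The largest parts were Ptprc (mean 2308 CPM in Veh, 2407 in GSK) and Thy1 (1205 and 1413), which are not particular to CD8+ T cells. Of the 9, 2 rose and 4 fell by the adjusted p, with log2 fold changes from -0.50 to 0.23 and a median of -0.11. Of other cell types, 10 B-cell markers summed to 6.36 to 8.43 CPM in Veh and 8.24 to 10.02 in GSK, and 12 myeloid markers to 12.8 to 19.3 and 13.5 to 17.4, with Cd14, Adgre1, Cd33 and Clec7a at 3 counts or fewer in every sample. Red cell and platelet markers were at 3 counts or fewer throughout. The 5 genes listed for CD4+ T cells summed to 323 to 432 CPM in Veh and 153 to 182 in GSK, most of it Ctla4, and the 5 for NK cells to 204 to 224 and 432 to 467, nearly all of it Eomes, with Ncr1 and Klra8 at 3 counts or fewer. Ctla4 and Eomes are also expressed by activated CD8+ T cells. Past both thresholds were Cd40lg, Cd22, Tyrobp and Eomes, which rose, and Ctla4 and Fcgr3, which fell. The part of these markers in the lipid gene results was not tested.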

How the data were processed

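Polyadenylated RNA of the 6 cultures was sequenced from stranded libraries. According to their notes and methods, the authors trimmed reads with Trimmomatic, mapped them to GRCm38 with HISAT2 (version 2.1.0) and deposited raw counts per gene from HTSeq (version 0.11.2). The annotation release and the strand setting are not given in the sources used here. The authors also used Cufflinks (version 2.2.1) and DESeq2 (version 1.22.2); the other columns of the table are gene annotation, and 0 value columns belonged to no sample.

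The 36 members were tested within the whole table by edgeR version 4.0.16 under R 4.3.3 (filterByExpr, TMM, robust quasi-likelihood fit, Benjamini-Hochberg adjustment over 11698 genes, thresholds of 0.05 and 1.5-fold). Standard errors and 95% intervals come from that fit, so they cover the spread between these samples and counting. The test was checked on simulated counts. The alternatives were DESeq2 (version 1.42.0), RLE factors, total counts alone (chosen after seeing the data), 2 other filters, a test against 1.5-fold, the replicate block and leaving out each sample. The members and lists were chosen with earlier results of these data known. Values in every sample are given for members that passed, for members whose groups did not overlap, for regulators and for the first and last enzyme of a branch. Of the context lists, genes past both thresholds are named, apart from 1 that is not reported here, and of the marker lists only those past both or near 0. Sequence sharing was counted in 31-base words of GENCODE vM21 transcripts, and 18 of the 36 members overlap another gene there. Promoters are from RefSeq (GRCm38.p6), with 7 members not matched.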

Additional observations from a re-analysis of the deposited data

How the results depend on the processing

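Of the 23 members called by the adjusted p, 11 kept the call and the direction in all 12 alternatives (Acat2, Idi1, Sqle, Cyp51, Hsd17b7, Insig2, Vldlr, Abcg1, Fasn, Elovl6 and Scd1), 12 lost the call in at least 1, and 0 changed direction. Apart from these 12, in a test against a fold change of 1.5, 0 members were higher and 1 was lower. Over all 11698 genes, 69 were higher and 65 lower in that test. Leaving out each sample in turn gave 7 to 17 members higher and 5 to 8 lower, and 0 to 1 higher and 1 to 3 lower past 1.5-fold. The lowest values came without Veh replicate 1 (7 higher, 1 lower past 1.5-fold), without GSK replicate 1 (7 higher) and without GSK replicate 3 (10 higher, 0 past 1.5-fold), in fits with fewer samples. Calls over all genes also fell in those fits, from 1941 higher to 1377, 1288 and 1463. The median log2 fold changes ranged from 0.10 to 0.18 (mevalonate), 0.13 to 0.18 (squalene to cholesterol), 0.13 to 0.17 (fatty acid) and 0.092 to 0.13 (all members) over these fits. Among members that did not pass, Pmvk ranged from -0.016 to 0.075 and Scap from -0.076 to 0.040 over these fits. Pmvk turned to -0.016 without Veh replicate 1, and Scap to 0.040 without Veh replicate 2, 0.0033 without Veh replicate 3 and 0.021 without GSK replicate 2. DESeq2 gave 15 members higher and 7 lower, against 1681 and 1582 over all genes. Total counts alone gave 13 members higher and 9 lower, against 1729 and 2015 over all genes, with the median of all genes shifted by -0.018. Same-numbered samples did not deviate together (correlations of -0.051, -0.081 and 0.16), so the numbers were not taken as pairs. With the replicate block 13 members were higher and 7 lower, with Fdps, Lss and Nsdhl no longer past the threshold. Nr1h3, Abca1 and Vldlr had the fewest counts of the members, and of these Vldlr alone passed the threshold with all samples.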

Other observations

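The pathway annotation in the deposited table gave further lists, which were chosen after the data were seen and are counted here without the 36 members (edgeR, adjusted p under 0.05). Over all genes tested, 16.6% were higher and 15.5% lower. Of 36 tested genes annotated to fatty acid degradation, 2 were higher and 9 lower. Of 19 annotated to fatty acid elongation 6 were higher and 3 lower, of 18 annotated to unsaturated fatty acids 5 were higher and 3 lower, and of 14 annotated to fatty acid biosynthesis 3 were higher and 1 was lower. Of 13 annotated to the terpenoid backbone 4 were higher and 9 did not pass, and of 5 annotated to steroid biosynthesis 1 was higher and 2 were lower. The counts in several of these lists lie near the share of all genes.

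The genes named from these lists were also chosen after their values were seen. Cpt1a, which brings fatty acids into mitochondria for oxidation, had 92.2, 88.6 and 95.3 CPM in the Veh samples and 76.2, 73.1 and 70.3 CPM in the GSK samples. It fell by 0.33 on the log2 scale (SE 0.052, adjusted p = 0.00049), with no overlap between the groups. Cyp4a14, a fatty acid hydroxylase, was at 1.47, 1.29 and 1.63 CPM in Veh and at 0, 0 and 0.626 CPM in GSK (adjusted p = 0.026). Ppt2, a lysosomal thioesterase, fell from 7.04 ± 0.721 to 3.78 ± 0.589 CPM (SD, n = 3; log2 fold change -0.90, adjusted p = 0.0017), and Acsbg1, an acyl-CoA synthetase, from 35.9 ± 2.96 to 28.3 ± 3.79 CPM (SD, n = 3; -0.34, adjusted p = 0.018). Pdss1, which builds the side chain of ubiquinone from farnesyl units, rose from 15.3 ± 0.589 to 19.8 ± 1.505 CPM (SD, n = 3; log2 fold change 0.37, adjusted p = 0.0066). Mecr, an enzyme of mitochondrial fatty acid synthesis, rose from 25.0 ± 0.817 to 31.3 ± 1.53 CPM (SD, n = 3; 0.32, adjusted p = 0.0045), and Acot7, a thioesterase that frees fatty acids from CoA, from 129 ± 4.44 to 156 ± 7.78 CPM (SD, n = 3; 0.28, adjusted p = 0.0012).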
